A study of Mus musculus with 4 samples.

Results

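Cone photoreceptors were described in single-cell RNA sequencing of mouse retinal cells that had been sorted for green fluorescent protein (GFP) from the Brn3b::GFP reporter, which marks cells by the gene Pou4f2. All samples form 1 group: 4 retinas of C57BL/6 mice aged 3 months, with the same reporter and no treatment. The deposited matrix holds the cells of these retinas together, with no label that ties a barcode to a retina, so it is 1 sample without replicates. The reporter is the only allele named. Sorting was aimed at retinal ganglion cells, and the labels give that as the cell type of every sample. A cone was a barcode with 5 or more unique molecular identifiers (UMIs) of Arr3, 2 or more of Gnat2, none of Slc17a6, Lhx1 or Trpm1, and under 20% of UMIs from mitochondrial genes. There were 106 such barcodes among 3183 under the mitochondrial maximum (3.33%, exact 95% interval 2.73% to 4.01%), out of 3237 in all. Arr3, Gnat2 and the excluded genes chose the cones, so their values are given as a description of the choice.

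Cones are the photoreceptors of daylight and colour vision. Light absorbed by a cone opsin activates a G protein (transducin), which switches on a phosphodiesterase that lowers cGMP and closes cGMP-gated channels. Rods use a parallel set of proteins encoded by other genes. Most mouse cones can make both the short-wavelength opsin Opn1sw and the medium-wavelength opsin Opn1mw, in proportions that change between the dorsal and the ventral retina.

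The cones were shallow libraries. They held between 3204 and 15321 UMIs (lower quartile 3449.5, median 3686.5), and the median cone had 1701 detected genes. The shallowest barcode of the whole matrix held 3198 UMIs. The cones and their share therefore describe only barcodes of that depth or more. The median of the 3077 other barcodes was 8278 UMIs. For comparison, barcodes were gated by other marker genes as 71 rods, 620 ON bipolar cells, 154 horizontal cells, 664 ganglion cells and 199 Müller glia, with median depths of 3980, 4190, 11117.5, 16627.5 and 4634 UMIs. Levels are UMIs summed over a gate and given per 1000000 UMIs of the gate (CPM), and intervals are exact 95% intervals for counting error only. No test between groups was possible with 1 sample. A gene was counted as higher or lower where its CPM ratio was 2 or more either way and its average CPM in the pair of gates was 20 or more.

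The defining markers were present in the cones. The 5 cone markers Arr3, Gnat2, Pde6h, Opn1sw and Opn1mw summed to between 96 and 451 UMIs per cone, with a median of 184.5. Pde6h, the inhibitory subunit of the cone phosphodiesterase, was not used in the choice and had between 28 and 162 UMIs in every cone, with a median of 90.5. Marker lists of other retinal classes were near 0 in most cones. The median cone held 1 UMI over 9 ganglion cell markers, 1 over 8 bipolar markers, 1 over 7 Müller markers, and 0 over the horizontal, amacrine, microglial, endothelial and pigment epithelial lists. The highest values in a single cone were 172 UMIs of the microglial list, 141 of the horizontal list, 52 of the Müller list and 21 of the ganglion cell list, and 2 cones had 20 or more UMIs of any class other than rods. The 6 rod markers used here (Gnat1, Pde6a, Nrl, Nr2e3, Sag and Cnga1) summed to between 1 and 147 UMIs per cone with a median of 29, and are described with the rod genes below. Pou4f2 itself gave 2 UMIs in all cones together (4.41 CPM, interval 0.534 to 15.9), against 1005 UMIs in ganglion cells (85.6 CPM, 80.4 to 91.1).

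At the edge of the choice, 5 cones had 5 or 6 Arr3 UMIs and 2 barcodes outside had 3 or 4. Those just inside had a median of 92 Pde6h UMIs and those just outside a median of 40.5. Of the 132 barcodes that met the Arr3 and Gnat2 minimums, 26 were left out for UMIs of Slc17a6 (7 barcodes), Lhx1 (1 barcode) or Trpm1 (19 barcodes). These 26 held 56.7% of all Opn1sw UMIs and 62.5% of all Pde6h UMIs found outside the cones, so every ratio of a cone gene against all other barcodes is a ratio against a group that still holds cone RNA. When the 76 other barcodes with 2 or more Arr3 UMIs were left out, an alternative added after the values were seen, the log2 ratio was 8.77 for Opn1sw and 9.11 for Pde6h, against 7.04 and 7.49 with them, and 793 genes were again higher.

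The cone phototransduction genes were higher in cones than in all other barcodes in 8 of 9 counted members, and in 9 of 9 against rods and against ON bipolar cells. Over all genes, 12.3% were higher and 22.7% lower in cones than in all other barcodes, 13.1% higher and 8.88% lower than in rods, and 12.5% higher and 14.2% lower than in ON bipolar cells. The median log2 ratio of the counted members was 7.04 against all others, 6.27 against rods and 6.46 against ON bipolar cells. The same median over all genes was -0.16, 0.11 and -0.08. Genes of this list were chosen as cone genes from knowledge of the cell type, so their direction is a check of the choice of barcodes.

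Among the opsins, Opn1sw reached 11053 CPM in cones (10749 to 11363) and 23.4 CPM in rods, and it lies on chromosome 6 at positions 29376671 to 29388468 of mm10, minus strand. Opn1mw reached 5727 CPM in cones (5509 to 5952) and 17.5 CPM in rods, and it lies on chromosome X at 74127464 to 74150760, plus strand. Both opsin genes are protein coding. The transducin gamma subunit Gngt2 had between 12 and 72 UMIs in every cone, with a median of 36, and a CPM 142 times that of rods (92.5 to 229). The transducin beta subunit Gnb3 had 3980 CPM in cones, 99.3 CPM in rods and 1830 CPM in ON bipolar cells, so it was shared with bipolar cells at 2.17-fold (2.06 to 2.29). Gnat2, the transducin alpha subunit used in the choice, had 4006 CPM in cones and 11.7 CPM in rods.

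The effector and channel genes ranged widely in level, with Pde6h at 21009 CPM in cones and the others far below it. Pde6c, the catalytic subunit of the cone phosphodiesterase, had 674 CPM in cones (601 to 754) and 0 UMIs in rods. It was 77.0-fold higher in cones against a floor of 3 counts over the rod gate, with an exact lower limit of 62.2. Pde6h was 1439-fold higher in cones than in rods (616 to 4432), on 9534 UMIs in cones and 5 in rods. The channel subunits Cnga3 and Cngb3 gave only 41 and 112 UMIs in all cones, and 1 and 0 in rods. Cnga3 was therefore found in 26.4% of cones, and in 22.6% (15.1% to 31.8%) once every barcode was thinned to 3000 UMIs. Cngb3 was found in 54.7% of thinned cones (44.8% to 64.4%). In ganglion cells thinned to the same depth these shares were 0% and 0.301%, the first allowing up to 0.452% by 3 counts.

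**Figure D1:**
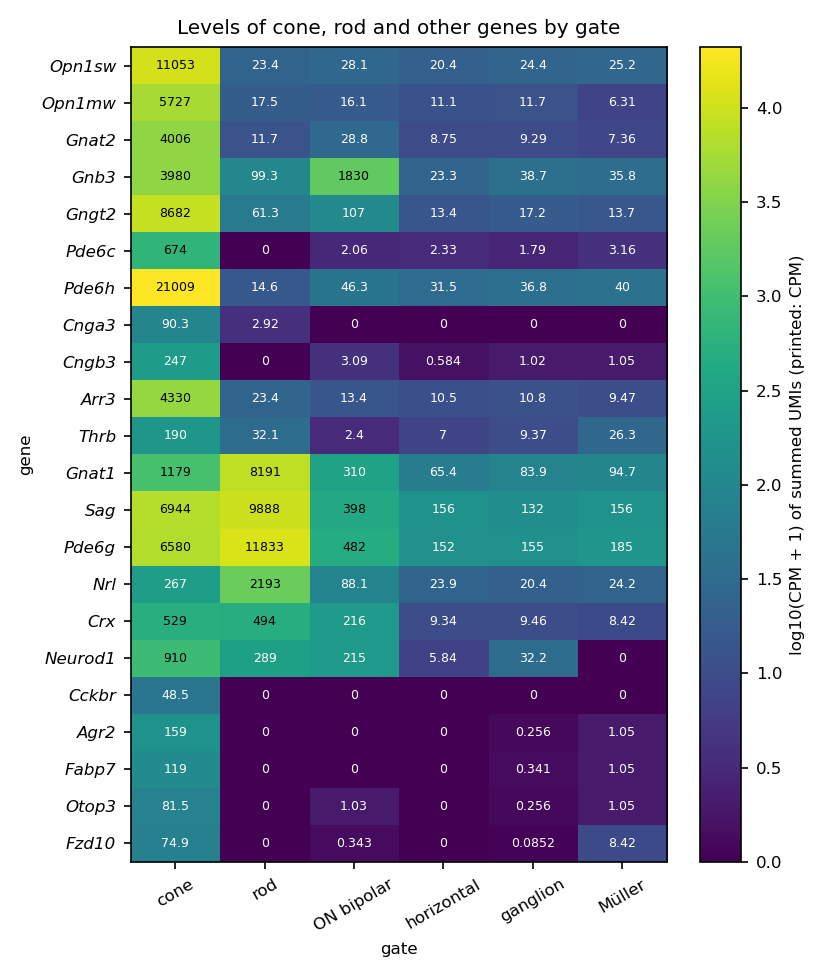
Level of 22 genes (rows) in 6 gates (columns). The colour is log10 of CPM plus 1 and the printed number is the CPM of UMIs summed over the gate. Pde6h, Opn1sw and Gngt2 are far above every other gate in cones, Gnb3 is shared with ON bipolar cells, and Sag and Pde6g are high in cones and rods.

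Promoter sequences are shown for 4 genes that the results turn on: both opsins, Arr3 as a gene of all cones, and Ccdc136, the gene next to Opn1sw. The windows cover 250 bases before to 50 bases after the start annotated by RefSeq on GRCm38.p6, the same assembly as mm10, and are read 5′ to 3′ on the strand of the gene. Capitals mark TAATC or its reverse complement GATTA, a core bound by the photoreceptor factor CRX, and AGGTCA or its reverse complement TGACCT, a core bound by nuclear receptors such as the thyroid hormone receptor. Both strands were searched, and no marked stretch overlapped another.
Opn1sw: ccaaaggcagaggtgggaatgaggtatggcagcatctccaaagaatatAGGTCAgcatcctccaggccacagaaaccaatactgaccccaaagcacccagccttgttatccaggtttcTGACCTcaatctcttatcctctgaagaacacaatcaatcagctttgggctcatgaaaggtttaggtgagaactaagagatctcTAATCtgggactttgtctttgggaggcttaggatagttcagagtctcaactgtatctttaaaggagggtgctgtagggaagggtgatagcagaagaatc
Opn1mw: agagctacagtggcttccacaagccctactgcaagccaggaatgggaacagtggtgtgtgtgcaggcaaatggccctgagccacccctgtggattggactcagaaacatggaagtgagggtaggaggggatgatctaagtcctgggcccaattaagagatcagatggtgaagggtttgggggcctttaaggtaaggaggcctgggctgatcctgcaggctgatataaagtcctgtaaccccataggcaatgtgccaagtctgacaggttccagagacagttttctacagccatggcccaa
Arr3: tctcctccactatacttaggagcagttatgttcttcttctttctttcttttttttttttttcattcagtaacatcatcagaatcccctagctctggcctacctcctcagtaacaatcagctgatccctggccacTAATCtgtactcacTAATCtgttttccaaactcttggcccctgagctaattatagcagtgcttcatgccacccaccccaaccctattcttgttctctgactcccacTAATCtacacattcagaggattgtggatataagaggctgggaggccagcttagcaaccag
Ccdc136: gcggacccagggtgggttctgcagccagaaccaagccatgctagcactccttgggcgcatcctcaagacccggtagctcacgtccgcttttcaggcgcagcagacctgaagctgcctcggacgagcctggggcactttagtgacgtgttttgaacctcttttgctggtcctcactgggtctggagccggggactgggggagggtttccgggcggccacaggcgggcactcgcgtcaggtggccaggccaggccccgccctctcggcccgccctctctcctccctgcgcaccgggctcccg
These windows are chr6:29380464-29380763 on the minus strand for Opn1sw, and chrX:74127216-74127515, chrX:100605247-100605546 and chr6:29396325-29396624 on the plus strand for Opn1mw, Arr3 and Ccdc136. The Opn1sw window held TAATC at position -49 from the start, AGGTCA at -202 and TGACCT at -132. The Arr3 window held TAATC at -116, -102 and -10. The Opn1mw and Ccdc136 windows held neither. TAATC or GATTA was in 22.3% of 27025 promoters of this length and in 3 of the 7 cone phototransduction promoters that were matched (Arr3, Gnat2 and Opn1sw), of 11 genes on the list. AGGTCA or TGACCT was in 16.0% of promoters and in 1 of these 7. A match of letters is a description of the window and no evidence of binding.

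Opn1sw divided the cones, whereas Opn1mw was found in nearly all of them. Opn1sw had 0 UMIs in 42 cones, between 1 and 9 in 14, and between 22 and 198 in 50, with no cone between 10 and 21. Opn1mw had 0 UMIs in 5 cones and 1 or 2 in 3, with a median of 21.5 and a highest value of 77. In the other gates a single barcode held at most 5 Opn1sw UMIs (ON bipolar) and at most 4 Opn1mw UMIs (ganglion). These gates allowed at most 1 Arr3 UMI, so barcodes of other classes with more cone RNA were not in them. The maxima are thus set in part by the gates. The 50 cones with 22 or more Opn1sw UMIs were above all barcodes gated in this way. Low values of Opn1sw in the 14 cones lay in or near the range of those barcodes.

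Both opsins had a UMI in 59 cones (55.7%). Of the 50 cones with 22 or more Opn1sw UMIs, 45 held at least 1 Opn1mw UMI and 41 held 5 or more. A value of 5 is above any barcode of the other gates, all limited to at most 1 Arr3 UMI. After thinning to 3000 UMIs, Opn1sw was found in 57.5% of cones (47.6% to 67.1%) and Opn1mw in 95.3% (89.3% to 98.4%). The thinned shares in rods were 5.63% for each opsin, at a median depth of 3980 UMIs before thinning.

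Cones were classed by the share of Opn1sw in their opsin UMIs. Of 104 cones with 10 or more opsin UMIs, 22 (21.2%, interval 13.8% to 30.3%) were S-dominant at a share of 90% or more, 31 (29.8%, 21.2% to 39.6%) were mixed, and 51 (49.0%, 39.1% to 59.0%) were M-dominant at 10% or less. The widest gap in the share ran between 19.1% and 36.4%, with 54 cones below it and 50 above. No such gap separated S-dominant from mixed cones, and 17 cones lay within 0.05 of the S limit against 5 within 0.05 of the M limit. S-dominant cones had between 39 and 198 Opn1sw UMIs with a median of 117, and between 0 and 18 Opn1mw UMIs with a median of 5.5. Mixed cones had medians of 63 Opn1sw and 22 Opn1mw UMIs. M-dominant cones had medians of 0 and 30.

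Across all 106 cones, Opn1sw and Opn1mw per 10000 UMIs were inversely related (Pearson r of log2 values -0.46, Spearman rho -0.47). These points share 1 library and are parts of the same totals, so the coefficients are descriptive. Within the 2 Opn1sw groups the coefficients were near 0. Spearman rho was -0.02 among the 50 cones with 22 or more Opn1sw UMIs and 0.07 among the 56 below. The median of Opn1mw was 11 UMIs (0 to 73) in the Opn1sw-high cones and 29.5 (8 to 77) in the Opn1sw-low cones, and the summed opsin UMIs had medians of 113 in the Opn1sw-high and 30 in the Opn1sw-low cones.

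**Figure D2:**
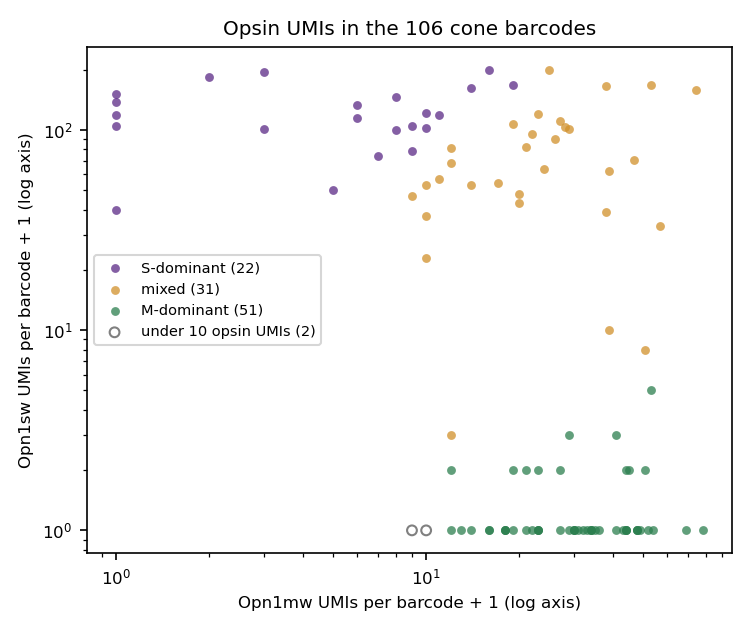
Opn1sw UMIs (vertical, log axis, plus 1) against Opn1mw UMIs (horizontal, log axis, plus 1) in each of the 106 cones, coloured by opsin class. The empty band between 9 and 22 Opn1sw UMIs separates 56 cones from 50, and 45 of the upper 50 hold Opn1mw.

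The genes that followed Opn1sw most closely were Ccdc136, Syndig1l and Kcne2. Among 2729 genes with a UMI in 20% or more of cones, Spearman correlation with Opn1sw over 106 cones was 0.75 for Ccdc136, 0.51 for Syndig1l, 0.49 for Kcne2, 0.40 for Sag and 0.40 for Guca1a. Ccdc136, a coiled-coil gene, lies next to Opn1sw on chromosome 6 at 29396309 to 29426994 on the opposite strand. It is 7840 bases from the annotated span of Opn1sw given above. The RefSeq start used for the Opn1sw promoter window lies inside that span and so farther from Ccdc136. It was found in 22 of 22 S-dominant, 25 of 31 mixed and 6 of 51 M-dominant cones, at 666 CPM (513 to 850), 506 CPM (396 to 638) and 34.2 CPM (13.8 to 70.5). Ccdc136 did not follow Opn1sw outside cones, as ON bipolar cells had 544 CPM of Ccdc136 and 28.1 CPM of Opn1sw. Syndig1l, a relative of a synapse differentiation gene, was at 166 CPM in S-dominant cones (95.1 to 270), 134 CPM in mixed cones (80.5 to 208) and 4.89 CPM in M-dominant cones (0.124 to 27.2), which held 1 UMI. Kcne2, an accessory subunit of potassium channels, was at 894, 767 and 386 CPM in the same classes.

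The genes that followed Opn1mw most closely were Arr3 (0.49), Ppa1 (0.43), Nxnl2 (0.42), Pdc (0.42) and Ckb (0.42). Arr3, the cone arrestin that quenches the active opsin, also chose the cones. Its median was 12 UMIs in S-dominant, 15 in mixed and 21 in M-dominant cones, and Pde6h had medians of 82.5, 84 and 95. Nxnl2, which encodes a thioredoxin-like factor of the rod-derived cone viability family, was at 62.4 CPM in S-dominant cones (22.9 to 136), 380 CPM in mixed cones (285 to 496) and 562 CPM in M-dominant cones (464 to 674). It was thus 7.81-fold lower in S-dominant cones than in the other cones (3.51 to 21.6). Its log2 ratio of -2.97 became -1.47 when the S limit was 80%. Car8, a carbonic anhydrase relative, was at 205 CPM in M-dominant cones (148 to 277) and 37.8 CPM in the other cones, a ratio of 5.43 (2.61 to 12.7).

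**Figure D3:**
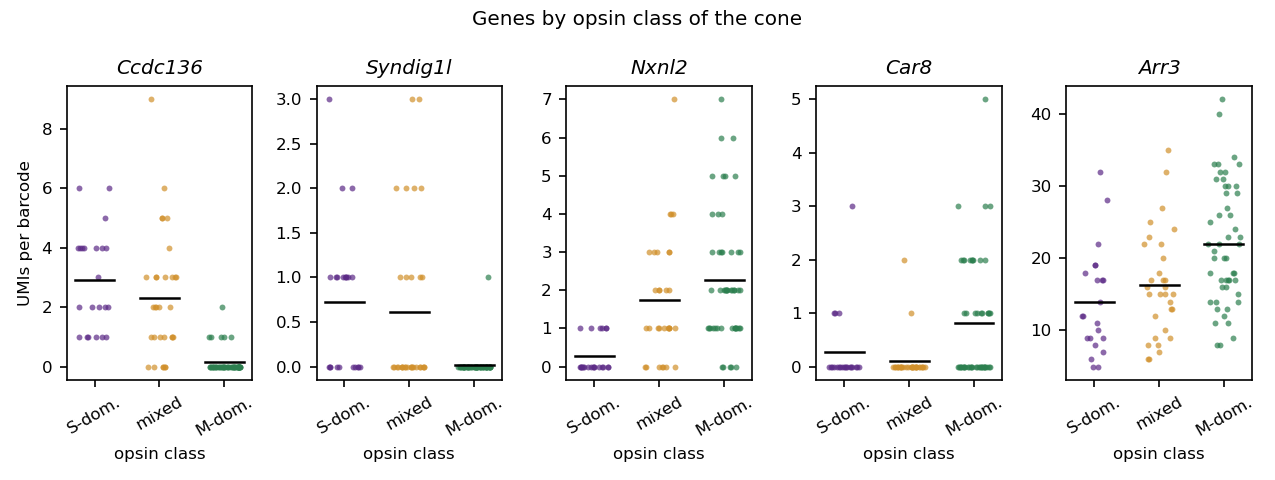
UMIs per cone of Ccdc136, Syndig1l, Nxnl2, Car8 and Arr3 in 22 S-dominant, 31 mixed and 51 M-dominant cones. Points are barcodes, spread sideways for display, and the line is the mean. Ccdc136 has a UMI in 22 of 22 S-dominant and 6 of 51 M-dominant cones, and Nxnl2 in 6 of 22 and 46 of 51.

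Most other genes lay within 2-fold between the opsin classes. Of 3559 genes with an average of 40 CPM or more, 6.66% were higher and 5.56% lower in S-dominant cones than in the other cones, on 96154 UMIs in 22 S-dominant cones. A single S-dominant cone held 15321 of these UMIs. The 1 cone that Scrublet called a doublet was S-dominant. With doublets left out, 208 genes were higher and 243 lower in S-dominant cones, against 237 and 198 with them. Of 3553 genes, 3.10% were higher and 4.45% lower in M-dominant cones than in the others. None of the 7 counted cone phototransduction genes passed 2-fold in either comparison. The genes that the naming rule put highest in S-dominant cones were Rnf157 (3.97-fold), Ndel1 (3.31), Ccdc136 (2.92) and Syndig1l (2.89), followed by Mettl10, Pex5l, Rnf115, Rnf181, Ndufa9 and Ssbp4. Apart from Ccdc136 with 64, they rested on 11 to 36 UMIs there. The log2 ratio of Ccdc136 was 1.55, and it was 2.38 at an S limit of 80% and 2.16 without the cones with 3 or more Gnat1 UMIs. The lowest were Samd7, Yae1d1, Nxnl2, Mef2c, Atp6v1h, Cit, Traf3ip3, Denr, Clcn4 and Ap1b1, which had 1 to 6 UMIs in S-dominant cones. At an S limit of 80% Mef2c was not lower (log2 ratio 0.54), and Clcn4 and Ap1b1 were at -0.08 and -0.26. At an S limit of 95% Mef2c and Yae1d1 were at -0.01 and -0.16.

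In M-dominant cones the highest ratios belonged to Dram2, Pola2, Tmem38a, Dnajb4 and Car8, followed by Creld2, Arf2, Med16, Syngr3 and Usp32. Apart from Car8 with 42, they rested on 13 to 25 UMIs in M-dominant cones. Tmem38a, an intracellular cation channel gene, was 7.76-fold higher in M-dominant cones (2.30 to 40.8), and Dnajb4, a co-chaperone gene, 5.82-fold higher (2.19 to 19.5). The lowest, besides Syndig1l and Ccdc136, were Sec11a, Clip3, Ccdc127, Ywhag, Picalm, Nr1d1, Cabp5 and Sqstm1.

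Regulators linked to opsin choice were sparse. Thrb, the thyroid hormone receptor beta that is needed for Opn1mw in mouse, was at 93.6 CPM in S-dominant cones (42.8 to 178). It was at 211 CPM in mixed cones (142 to 301) and 230 CPM in M-dominant cones (169 to 305). By the 2-fold rule Thrb was counted as lower in S-dominant cones than in the other cones. The S-dominant level rested on 9 UMIs in 6 cones, and its interval overlapped both others. Overlap of separate intervals does not decide whether the levels differ, and no test was possible with 1 sample. Rxrg, a retinoid receptor that is known to hold Opn1sw low in the dorsal mouse retina, had 10, 3 and 15 UMIs in S-dominant, mixed and M-dominant cones. By the same rule Rxrg was counted as higher in S-dominant cones than in the other cones, but these UMIs are too few for an order. Nr2f2, a factor of the dorsal retina, gave 0, 1 and 10 UMIs. Samd7 was at 10.4, 63.3 and 117 CPM, on 1, 9 and 24 UMIs.

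Transcription factors separated cones from rods in both directions. Of 15 counted, 5 were higher and 6 lower in cones than in rods, beside 13.1% higher and 8.88% lower over all genes. Crx, which activates many photoreceptor genes, was at 529 CPM in cones (464 to 600) and 494 CPM in rods. Otx2, which acts before Crx in development, was at 74.9 CPM in cones and 61.3 CPM in rods. Higher in cones were Thrb (190 CPM in cones, 32.1 in rods), Neurod1 (910 in cones, 289 in rods), Mef2d (218 in cones, 84.7 in rods), Rxrg (61.7 in cones, 2.92 in rods) and Sall3 (52.9 in cones, 2.92 in rods). In the rod gate 2.92 CPM is 1 UMI, so the sizes of the Rxrg and Sall3 ratios are uncertain. Rxrg was shared with ganglion cells, where 21.2% of thinned barcodes held it, and 19.8% of thinned cones did. Lower in cones were the rod-specifying factor Nrl, at 267 CPM in cones against 2193 CPM in rods, and its target Nr2e3, at 110 CPM in cones against 937 CPM in rods, and also Mef2c, Esrrb, Samd11 and Rorb.

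Some rod genes were found mainly in a minority of the cones, and others in every cone. Over the 6 rod markers, 74 of 106 cones held 20 or more UMIs. Gnat1, the rod transducin alpha subunit, had between 0 and 2 UMIs in 77 cones and between 3 and 58 in the other 29, which held 95.7% of the Gnat1 UMIs of all cones. The limit is the minimum of 3 Gnat1 UMIs that chose the rods, and dividing the cones by it was added after the values were seen. Those 29 comprised 6 S-dominant, 12 mixed and 11 M-dominant cones, with a median of 4759 UMIs against 3577 in the 77. Among ON bipolar barcodes, 11.6% had 3 or more Gnat1 UMIs. Scrublet called 1 cone a doublet, among 61 called of 3183 barcodes. Whether the rod genes in the 29 barcodes came from the same cell was not tested.

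The rod genes fell into 2 groups when the 77 cones with 2 or fewer Gnat1 UMIs were set beside rods. Cnga1, Nrl, Nr2e3 and Slc24a1 were at 0.437%, 0.298%, 0.349% and 0.806% of the rod level in these cones. Cngb1, Pde6b, Gnb1, Guca1b and Pde6a were between 1.14% and 4.57%. In ON bipolar barcodes these 9 genes were between 3.19% and 12.8% of the rod level. All but Pde6a were lower in these cones than there. The cones were cut on Gnat1 and the ON bipolar barcodes were not, so that order follows in part from the choice. Over all 106 cones each of the 9 genes was above its ON bipolar value, at 9.91% to 17.3% of the rod level. The second group comprised Sag, the rod arrestin, at 64.2% of the rod level, Pde6g, the inhibitory subunit of the rod phosphodiesterase, at 46.3%, and Gngt1, the rod transducin gamma subunit, at 32.3%. In ON bipolar barcodes the same 3 genes were at 4.03%, 4.08% and 3.70% of the rod level. All 3 had a UMI in 77 of 77 of these cones, and in 321, 346 and 328 of 620 ON bipolar barcodes. Sag had between 1 and 61 UMIs there with a median of 23, Pde6g between 11 and 35 with a median of 21, and Gngt1 between 7 and 51 with a median of 22, while Cnga1 had a median of 0 and a highest value of 1. Nrl was found in 2 of the 77 cones and Nr2e3 in 1. In the 29 other cones Cnga1, Nrl, Nr2e3 and Slc24a1 were at 29.5%, 36.6%, 35.3% and 39.9% of the rod level.

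**Figure D4:**
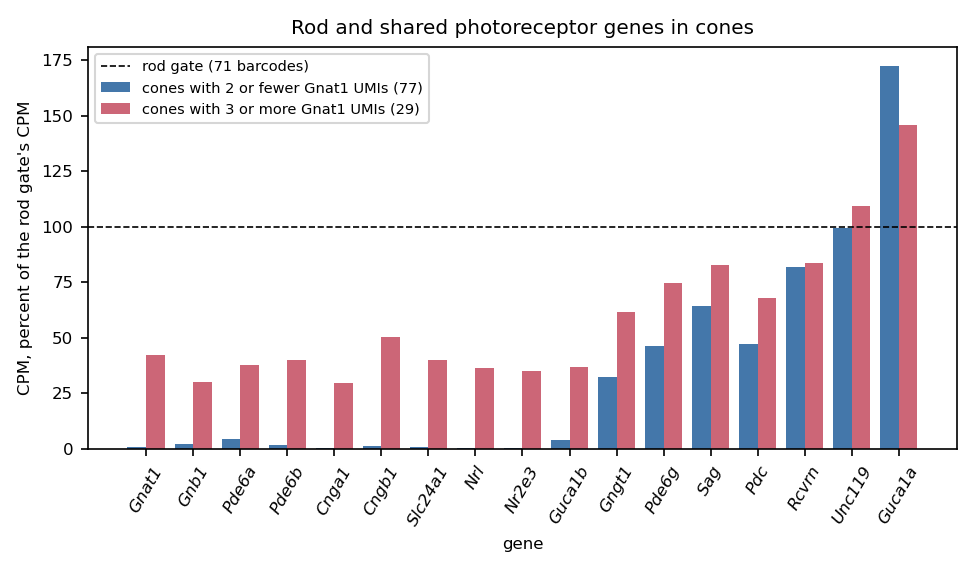
CPM of 17 rod or shared photoreceptor genes in the 77 cones with 2 or fewer Gnat1 UMIs (blue) and the 29 with more (red), as a percentage of the CPM in 71 rods (dashed line at 100%). In the blue bars, Cnga1 is at 0.437% and Nrl at 0.298%, and Sag, Pde6g and Gngt1 are between 32.3% and 64.2%. Gnat1 divided the cones, so its bars follow from that choice.

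Over all 106 cones, 6 of 8 counted rod phototransduction genes were lower than in rods, with a median log2 ratio of -2.62. Sag and Pde6g were the other two. Gnat1 and Pde6b chose the rods and were not counted. Shared phototransduction genes were mostly within 2-fold of rods: 2 were higher, 1 lower and 7 between. Most of all counted genes were too, with 13.1% higher and 8.88% lower in cones than in rods. Aipl1, a chaperone of phosphodiesterase that is mutated in inherited blindness, was 2.01-fold higher in cones (1.77 to 2.28), and Rgs9, which speeds transducin shut-off, 2.68-fold higher on 32 UMIs in cones and 9 in rods (1.25 to 6.39). Guca1a, an activator of guanylate cyclase, had 5844 CPM in cones and 3571 CPM in rods. Its relative Guca1b had 372 CPM in cones and 2538 CPM in rods, and 98.2 CPM in the cones with 2 or fewer Gnat1 UMIs.

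Outer segment genes were lower in cones than in rods in 7 of 14 counted members, and 1 was higher. Of all genes, 8.88% were lower and 13.1% higher. The disc rim proteins Prph2 and Rom1 were at 2140 and 2710 CPM in cones, against 5613 and 8839 CPM in rods. Abca4, which clears retinal from discs, was at 176 CPM in cones and 496 CPM in rods, and Fscn2 at 88.1 CPM in cones and 482 CPM in rods. Rpgrip1, a protein of the connecting cilium, was higher, at 926 CPM in cones and 204 CPM in rods, a ratio of 4.53 (3.51 to 5.92). It was at 910 CPM in the cones with 2 or fewer Gnat1 UMIs. Rbp3, the retinoid carrier of the interphotoreceptor matrix, was at 2501 CPM in cones and 2535 CPM in rods.

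**Figure D5:**
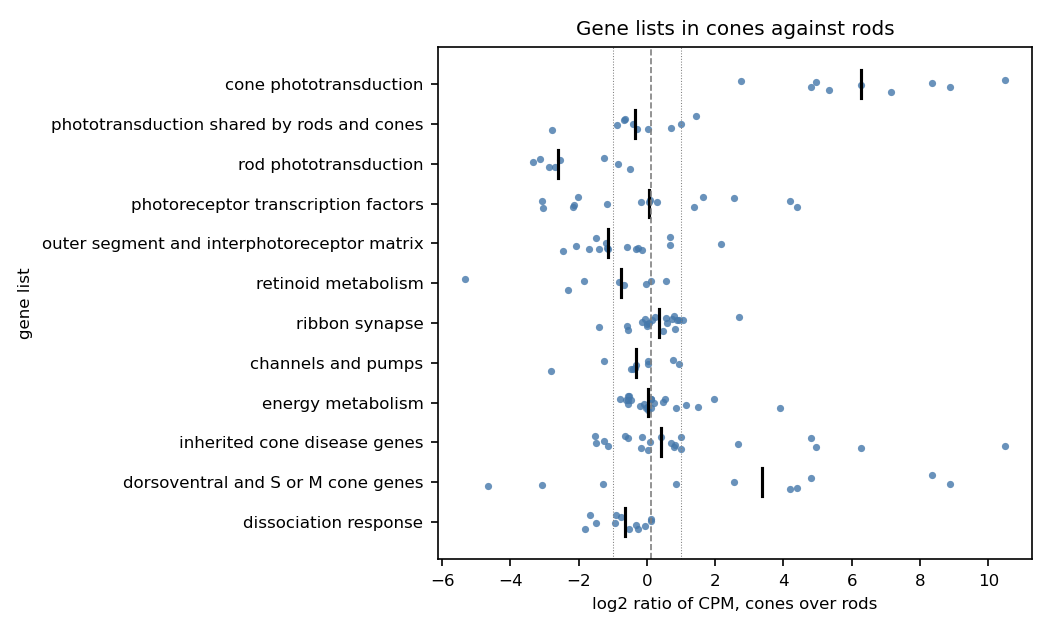
log2 ratio of CPM, cones over rods, for counted genes of 12 lists. Each point is a gene, black bars are list medians, the dashed line is the median of all counted genes (0.11) and dotted lines mark 2-fold. The cone phototransduction median is 6.27 and the rod phototransduction median is -2.62.

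Synaptic and metabolic genes were mostly within 2-fold between cones and rods, as were most of all counted genes (13.1% higher, 8.88% lower in cones). Of 20 ribbon synapse genes, 2 were higher in cones, 1 was lower and 17 lay between. Cplx3, a complexin of ribbon synapses, was at 1056 CPM in cones, 164 CPM in rods and 1916 CPM in ON bipolar cells, and was 6.45-fold higher in cones than in rods (4.89 to 8.67). Dlg4, the scaffold protein PSD-95, was 2.10-fold higher in cones (1.51 to 2.96). Slc17a7, the vesicular glutamate transporter of photoreceptors, was at 945 CPM in cones and 908 CPM in rods. Among 23 energy metabolism genes, 4 were higher in cones than in rods, none was lower and 19 lay between.

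The 4 were Pygm, Ckb, Ckmt1 and Eno2. Pygm, a glycogen phosphorylase, had 119 UMIs in cones and 6 in rods, a ratio of 14.97 (6.68 to 41.6). Ckb, the brain creatine kinase, had between 6 and 77 UMIs in every cone with a median of 21, and was 2.80-fold higher in cones than in rods (2.57 to 3.06). The mitochondrial creatine kinase Ckmt1 was at 505 CPM in cones and 128 CPM in rods, and the enolase Eno2 at 355 CPM in cones and 161 CPM in rods. The glycolytic genes Aldoa, Gapdh, Pkm and Ldha were within 2-fold, at 0.951, 0.730, 0.693 and 1.08 times the rod level.

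Channel, retinoid and stress genes were mostly within 2-fold between cones and rods, as were most of all counted genes (13.1% higher, 8.88% lower in cones). Of 10 channel and pump genes none was higher in cones, 8 lay between and 2 were lower, Kcnj14 and Kcnv2. Kcnv2 encodes a subunit of the photoreceptor inner segment potassium channel, and was at 83.7 CPM in cones, against 199 CPM in rods. Kcnj14, an inward rectifier potassium channel, was at 63.9 CPM in cones, against 444 CPM in rods. Of 8 retinoid genes 3 were lower in cones (Rlbp1, Dhrs7 and Dhrs3), 5 lay between and none was higher. Rlbp1 is also a Müller marker, and its log2 ratio was -5.33 with all rods and -2.20 when the 8 rods with 3 or more Rlbp1 UMIs were left out. Of 12 genes of the response to dissociation 3 were lower in cones, 9 lay between and none was higher. Against all other barcodes, 8 of 13 were lower, where 22.7% of all genes were. Within the cones 1 mixed cone held 148 of the 319 UMIs of this list in its class, and the highest cone of the other classes held 10 or 13.

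Genes known from inherited cone disease in humans were mostly measured in these cones. Of 28 on the list, 22 reached the level filter against all others, 21 of them were counted, 17 were higher in cones and none was lower. Over all genes 12.3% were higher and 22.7% lower. Against rods 7 were higher and 4 lower, beside 13.1% higher and 8.88% lower over all genes. Pde6h, Pde6c, Cnga3 and Cngb3 are also on the cone phototransduction list, so these counts partly repeat that list. Those higher than in rods were Pde6h, Pde6c, Cnga3, Cngb3, Rpgr, Aipl1 and Cnnm4, and those lower were Abca4, Adam9, Kcnv2 and Prom1. Cnnm4, a metal transporter gene of Jalili syndrome, was at 35.3 CPM in cones and 17.5 CPM in rods on 16 UMIs in cones and 6 in rods, and the interval of its ratio ran from 0.748 to 6.28, on both sides of 1.

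Beyond phototransduction, the genes with the highest ratios against all other barcodes included several found in a part of the cones only. Cckbr, a receptor for cholecystokinin, gave 22 UMIs in 20 cones and 3 UMIs in all 3077 other barcodes, a ratio of 495 (149 to 2585). Agr2, a protein disulfide isomerase, gave 72 UMIs in 40 cones and 16 elsewhere (304-fold, 175 to 560). Fabp7, a fatty acid binding protein, gave 54 UMIs in 39 cones and 17 elsewhere (215-fold, 122 to 395). Neither Cckbr, Agr2 nor Fabp7 had a UMI in rods, ON bipolar cells or horizontal cells. After thinning, Agr2 was found in 33.0% of cones (24.2% to 42.8%), Fabp7 in 29.2% (20.8% to 38.9%) and Cckbr in 13.2% (7.41% to 21.2%). Each was found in 0% of thinned ganglion cells, which allows up to 0.452% by 3 counts.

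The rest of the 15 highest were Opn1mw (197-fold), Pde6h (179), Clca1 (177), Cnga3 (163), Pde6c (135), Opn1sw (132), Gngt2 (127), Fzd10 (121), Cldn7 (104), Gsc2 (94.6), Erich6 (94.2) and Otop3 (89.3). Fzd10 is a Wnt receptor, Cldn7 a tight junction protein, Gsc2 a homeobox factor and Otop3 a proton channel. Fzd10, Cldn7, Gsc2, Otop3, Erich6 and Clca1 gave between 20 and 46 UMIs in cones. In all, 143 of 6443 counted genes (2.22%) were 10-fold or more higher in cones than in all other barcodes. These ratios and their order depended on which other barcodes were kept. With the 76 that held 2 or more Arr3 UMIs left out, Clca1 was highest at 1369-fold on 21 UMIs in cones and 1 elsewhere (220 to 56611). Cnga3 followed at 891-fold on 41 UMIs in cones and 3 elsewhere (284 to 4497), and Agr2 at 782-fold (342 to 2202). Cckbr then had 0 UMIs elsewhere and was 478-fold higher in cones against a floor of 3 counts over the other barcodes, with an exact lower limit of 357. Opn1mw was at 487-fold, Fabp7 at 391-fold and Pde6c at 356-fold, and the rest of the 15, apart from Pde6h and Opn1sw, were between 115-fold and 218-fold.

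Among the 10 lowest against all other barcodes were Tusc5, Dkk3, Nrgn, Ntng1, Cox4i2, Caln1, Elavl2, Isl1 and S100a10, each with 1 to 3 UMIs in the cones. Isl1, a factor of ganglion and bipolar cells, had 2 UMIs in cones and 6126 elsewhere, and was 45.4-fold lower in cones (12.6 to 375). Elavl2, a neuronal RNA-binding protein, had 1 UMI in cones and 3081 elsewhere.

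Against rods, the highest ratios outside phototransduction were Kcne2 (69.2-fold, 23.4 to 337), Parvb (58.9), Gulo (49.8), Mogat1 (43.8) and Dfna5 (40.7). Each of Parvb, Gulo, Mogat1 and Dfna5 had 1 UMI in rods. Kcne2 was not particular to cones, since it was found in 52.7% of thinned ON bipolar barcodes and 70.8% of thinned cones. Gulo, the enzyme that completes vitamin C synthesis in mice, was found in 32.1% of thinned cones (23.3% to 41.8%), 1.41% of rods and 0.151% of ganglion cells.

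The 10 lowest against rods were Dkk3, Slc1a3, Rlbp1, Fxyd1, Epas1, Cdkn2c, Gpsm2, Timp2, Ndrg2 and Glul. Dkk3, Slc1a3, Rlbp1 and Glul are on the list of Müller glia markers, and the choice of rods did not exclude Müller RNA. In a comparison added after the values were seen, 8 rods with 3 or more Rlbp1 UMIs were left out and 63 kept. The 10 lowest were then Gpsm2, Cdkn2c, Wisp1, Tnfaip3, Cnga1, Frmpd1, Nt5e, Polg2, Gnb1 and Nr2e3, with Gpsm2, an organiser of cell polarity, at 4 UMIs in cones and 45 in rods (17.2-fold lower in cones, 6.27 to 65.8). Glul and Ndrg2 then no longer passed 2-fold, at log2 ratios of -0.21 and -0.61. Cnga1 was 10.9-fold lower in cones (8.83 to 13.6).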

How the data were processed

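Per the labels' protocols, GFP-positive cells of dissociated retinas were enriched by sorting before library preparation with 10x Chromium chemistry. The build mm10 and the tools Seurat 2.2 and Cell Ranger (no version) are named in the submitters' processing notes, and their settings are not given. Deposited values were raw counts, that is whole UMIs for 27999 genes in each barcode. Symbols found on more than 1 row (56) were left out of lists. Barcodes were unique, and all carried 1 suffix, so no shared barcodes between libraries could be counted.

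Gates used UMIs. Rods had Gnat1 of 3 or more and Pde6b of 2 or more, ON bipolar cells Trpm1 of 3 or more, horizontal cells Lhx1 of 2 or more with Onecut1, ganglion cells Slc17a6 of 3 or more, and Müller glia Rlbp1 and Slc1a3 of 3 or more. All had at most 1 Arr3 UMI. Intervals were Poisson for CPM, Clopper-Pearson for shares and exact conditional for ratios (95%), and cover counting error only. Shares were also given after thinning to 3000 UMIs with seed 0, and no barcode was left out. Genes used by a gate and mitochondrial genes were not counted. A gate at 0 got a floor of 3 counts.

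Named genes were the 15 highest and 10 lowest ratios against all others and the 10 highest and lowest of the other comparisons, with a UMI in 10 or more cells of the higher gate and at most 25% of its UMIs from 1 cell, plus listed genes. Some listed or named genes are not reported here and were left out of list counts. The comparison of M-dominant cones was added after the data were seen. The members and lists were chosen with earlier results of these data known. Doublets were called with Scrublet in scanpy 1.11.5 and not removed. Python 3.11.15, numpy 2.4.6, pandas 2.3.3, scipy 1.17.1 and matplotlib 3.10.9 were used. The counting was tested on simulated data. Promoters came from RefSeq and gene coordinates from the GENCODE annotation of GRCm38.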

Additional observations from a re-analysis of the deposited data

Results flagged for a closer look

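Outside the comparisons, 4 barcodes met the gene rule for cones but had 20% or more mitochondrial UMIs. Their mitochondrial shares were 20.05%, 20.7%, 26.6% and 23.8%, and they held 104, 39, 95 and 89 Pde6h UMIs. The first had 0 Opn1sw and 54 Opn1mw UMIs, the second 52 and 0, the third 159 and 59, and the fourth 20 and 15.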

How the results depend on the processing

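Of 168 alternative values of the main results, 133 stayed within the limits set for a change, and of 900 alternative values for single genes 850 did, 49 moved and 1 reversed. Counts of genes followed the level filter. At a minimum average of 100 CPM, and then of 5 CPM, cones had 232 and 1335 genes higher and 325 and 2805 lower than all other barcodes, 143 and 1601 higher and 97 and 1361 lower than rods, and 187 and 1460 higher and 206 and 1678 lower than ON bipolar cells. S-dominant cones then had 43 and 1960 higher and 24 and 780 lower than other cones, and M-dominant cones 13 and 1031 higher and 28 and 1274 lower. In S-dominant cones 3 UMIs are 31.2 CPM. At the minimum of 5 CPM the floor of 3 counts could therefore count a gene with 0 UMIs there as higher. The 1960 may include such genes, and their number was not determined. Without the 29 cones with 3 or more Gnat1 UMIs, cones were 2.44% of barcodes, 19 were mixed, 408 genes were higher in S-dominant cones, and 182 were higher and 243 lower in M-dominant cones, on fewer cells. With Arr3 of 10 or more, cones were 2.73% of barcodes, 14 were S-dominant and 401 genes were higher in them. With limits of 0.8 and 0.2, 36 cones were S-dominant and 14 mixed. With limits of 0.95 and 0.05, 11 were S-dominant, and 372 genes were higher and 367 lower in them. With a minimum of 30 opsin UMIs, 27 were M-dominant. Cngb3 was found in 65.1% of cones without thinning. Mef2c, lower in S-dominant cones, reversed to a log2 ratio of 0.54 at an S limit of 0.8. The cause was not tested. Centring ratios on the median gene (-0.16 against all others, 0.11 against rods) gave 986 higher and 1273 lower, and 620 higher and 598 lower. No paired analysis was possible because the matrix does not tie barcodes to retinas.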
